A study of Mus musculus with 6 samples.

Results

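Transferrin receptor and iron handling genes were examined in RNA sequencing of mouse fetal liver, as 10 genes out of the 34542 listed in the gene count table. They were chosen by symbol, for their known roles: Tfrc, Tfr2, Slc11a2, Steap3, Slc25a37, Slc40a1, Fth1, Ftl1, Aco1 and Ireb2. All 10 were present in the gene table and in the separate table of exonic and intronic counts, and all 10 were among the 15105 genes that passed the filter on low counts. The study compared 3 wild-type (WT) libraries, replicates 1 to 3, with 3 libraries from embryos of genotype miR-144/451-/- (KO), replicates 4 to 6. Both groups were strain C57BL/6J with no treatment listed, and every library was made from polyadenylated RNA of fetal liver cells. Embryo age and how the deletion was made were not stated in those labels. Nor is it stated if single or pooled embryos were used, and p-values here reflect no more than library-to-library spread.

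Developing red cells take up iron as transferrin bound to the transferrin receptor, release it in endosomes, reduce it, carry it into the cytosol and then into mitochondria for heme synthesis. Iron that is not used is stored in ferritin or leaves the cell through ferroportin. The balance is set in large part after transcription: iron regulatory proteins bind hairpins called iron-responsive elements, which protects the transferrin receptor mRNA from decay when iron is low and blocks translation of ferritin and ferroportin mRNAs. The deleted locus makes miR-144 and miR-451, which are abundant in erythroid cells and lower mRNAs that carry matches to their seeds in the 3' untranslated region (UTR).

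The hairpins that mark these mRNAs were sought in the annotated UTRs of GENCODE M21 (build GRCm38). They are shown because the main change below lies in Tfrc, for which this search found 4. The search word was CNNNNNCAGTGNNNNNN on the transcript strand, with all 5 bases after the first C able to pair (G with U allowed) with the last 5. In each sequence the capitals mark the unpaired C and the 6-base loop. Tfrc had 4 such loops in its 3' UTR, at positions 889, 1268, 1333 and 1380 of 2458 bases, within chr16:32631219-32631739 on the plus strand.
Tfrc loop 1: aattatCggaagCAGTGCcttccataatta
Tfrc loop 2: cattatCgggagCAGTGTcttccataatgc
Tfrc loop 3: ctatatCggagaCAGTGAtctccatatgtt
Tfrc loop 4: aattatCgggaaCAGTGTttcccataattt
Fth1, 5' UTR, chr19:9982732-9982761, plus strand: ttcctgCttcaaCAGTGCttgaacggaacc
Ftl1, 5' UTR, chr7:45459778-45459807, minus strand: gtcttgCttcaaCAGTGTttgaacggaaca
Slc40a1, 5' UTR, chr1:45925464-45925493, minus strand: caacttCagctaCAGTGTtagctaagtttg

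The same word with pairing occurred in the 3' UTR of 0.616% of 20937 genes and in the 5' UTR of 0.151% of 20492 genes, without matching for UTR length. No match with this pairing was found in the UTRs of the other 6 members. Words whose stem did not pair at all 5 positions were not counted, so hairpins with a less regular stem would be missed.

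Matches to the seeds of the deleted microRNAs were searched in the longest annotated 3' UTR of each member, and the microRNAs are printed with the seed (bases 2 to 8) in capitals. Mature sequences are those of RefSeq on GRCm38.p6.
miR-451a, chr11:78073186-78073207, plus strand: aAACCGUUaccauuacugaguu
miR-144-3p, chr11:78073047-78073066, plus strand: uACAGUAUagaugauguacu
Steap3 match to miR-451a (AACGGTT), chr1:120224693-120224717, minus strand: tacatctccAACGGTTgcagagagc
Tfrc match 1 to miR-144-3p (ATACTGT), chr16:32631248-32631272, plus strand: atgacagttATACTGTcgttttctt
Tfrc match 2 to miR-144-3p, chr16:32632686-32632710, plus strand: tgccaacctATACTGTctttgctga
Ireb2 match 1 to miR-144-3p, chr9:54910524-54910548, plus strand: ttttacgtgATACTGTaactcctgt
Ireb2 match 2 to miR-144-3p, chr9:54911233-54911257, plus strand: tttgaaaccATACTGTgttctggta
Ireb2 match 3 to miR-144-3p, chr9:54912195-54912219, plus strand: tggacaatgATACTGTatttgattt

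Capitals mark the 7-base site in each match. Among annotated 3' UTRs of any length, 1.76% held a miR-451a match, 12% a miR-144-3p match and 6.15% a miR-144-5p match (TGATATC). The first miR-144-3p match of Tfrc, at base 921 of the UTR, lies close behind loop 1, which begins at base 889. Tfrc and Slc40a1 each had 1 miR-144-5p match, and Tfr2, Slc11a2, Slc25a37, Fth1, Ftl1 and Aco1 had no match to any of the 3 seeds. A match is a description of letters, and binding was not measured in the data analysed here.

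**Figure D1:**
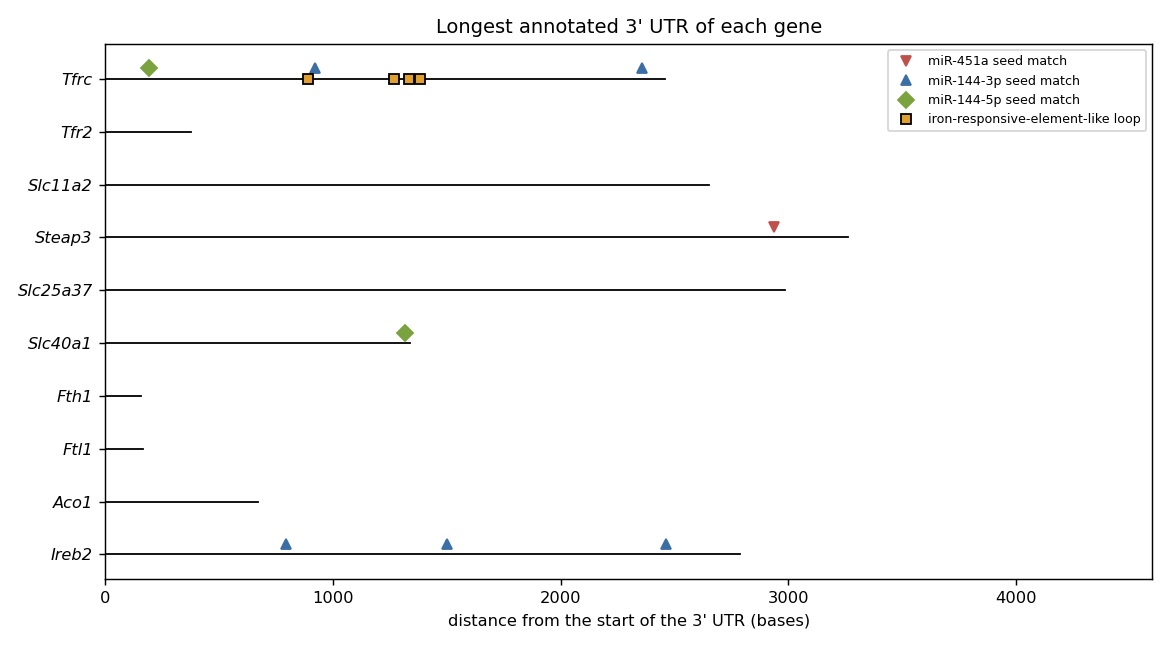
Map of the longest annotated 3' UTR of each of the 10 genes, with distance from the UTR start in bases on the x axis. Squares mark the 4 loops of Tfrc, triangles and diamonds mark seed matches of the 3 microRNA strands, and Ireb2 has 3 miR-144-3p matches while 6 genes have none of the 3.

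The libraries held 24659978 to 44700229 gene counts. Mir144 had 29 to 51 counts in WT and 0 to 1 in KO, and Mir451 had 323 to 446 in WT and 2 to 4 in KO. Levels are given as CPM, the standard unit of counts relative to library size, with library sizes scaled by TMM (a trimmed mean of M-values). Markers of hepatocytes, the other main cell type of the fetal liver, varied within both groups: the summed level of 20 markers, led by Alb, was 61107 CPM in WT replicate 2 and 49759 in KO replicate 6, and 9597 to 21954 in the other 4 libraries. Macrophage markers (12 measured) summed to 943 and 661 CPM in the same 2 libraries and to 375 to 539 in the others. No marker of either list was at 0 in every library. Neutrophil markers were below 0 in log2 change for 8 of 8 genes, with sums of 2381 to 4153 CPM in WT and 1510 to 3182 CPM in KO, and their part in the results below was not tested. By edgeR 0 genes of these lists passed, nor did any of 7 megakaryocyte, 6 endothelial or 5 mast cell markers. At an unadjusted p under 0.05 (edgeR) 1 mast cell marker was lower. The log2 change was also below 0 for 5 of 5 mast cell, 11 of 12 macrophage, 15 of 20 hepatocyte and 4 of 7 megakaryocyte markers. It was above 0 for 6 of 6 endothelial markers, and below 0 for 8331 of all 15105 tested genes.

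Tfrc, the receptor that brings transferrin-bound iron into erythroid cells, fell in KO livers and was the 1 member that passed the test. Its level was 4141, 3559 and 4105 CPM in WT replicates 1 to 3, and 2208, 2301 and 2127 CPM in KO replicates 4 to 6. Every KO library was below every WT library, with a gap wider than the whole range of either group. The mean went from 3935 ± 326 to 2212 ± 86.9 CPM (SD, n = 3 each), which is 56.2% of WT. The log2 change was -0.83 (SE 0.14), with an adjusted p of 0.0336 by edgeR's quasi-likelihood test. Across all tested genes 3.28% passed, 1.83% as higher and 1.45% as lower. Among the 10 members 1 was lower and 0 were higher, and their median log2 change was -0.08 beside -0.03 over all tested genes. Without the filter on low counts the adjusted p of Tfrc was 0.0599 by edgeR. Leaving out a WT library gave adjusted p (edgeR) of 0.137 for replicate 1, 0.00662 for replicate 2 and 0.186 for replicate 3. Leaving out a KO library gave 0.101 for replicate 4, 0.0829 for replicate 5 and 0.0711 for replicate 6, and the 6 log2 changes lay between -0.90 and -0.79.

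**Figure D2:**
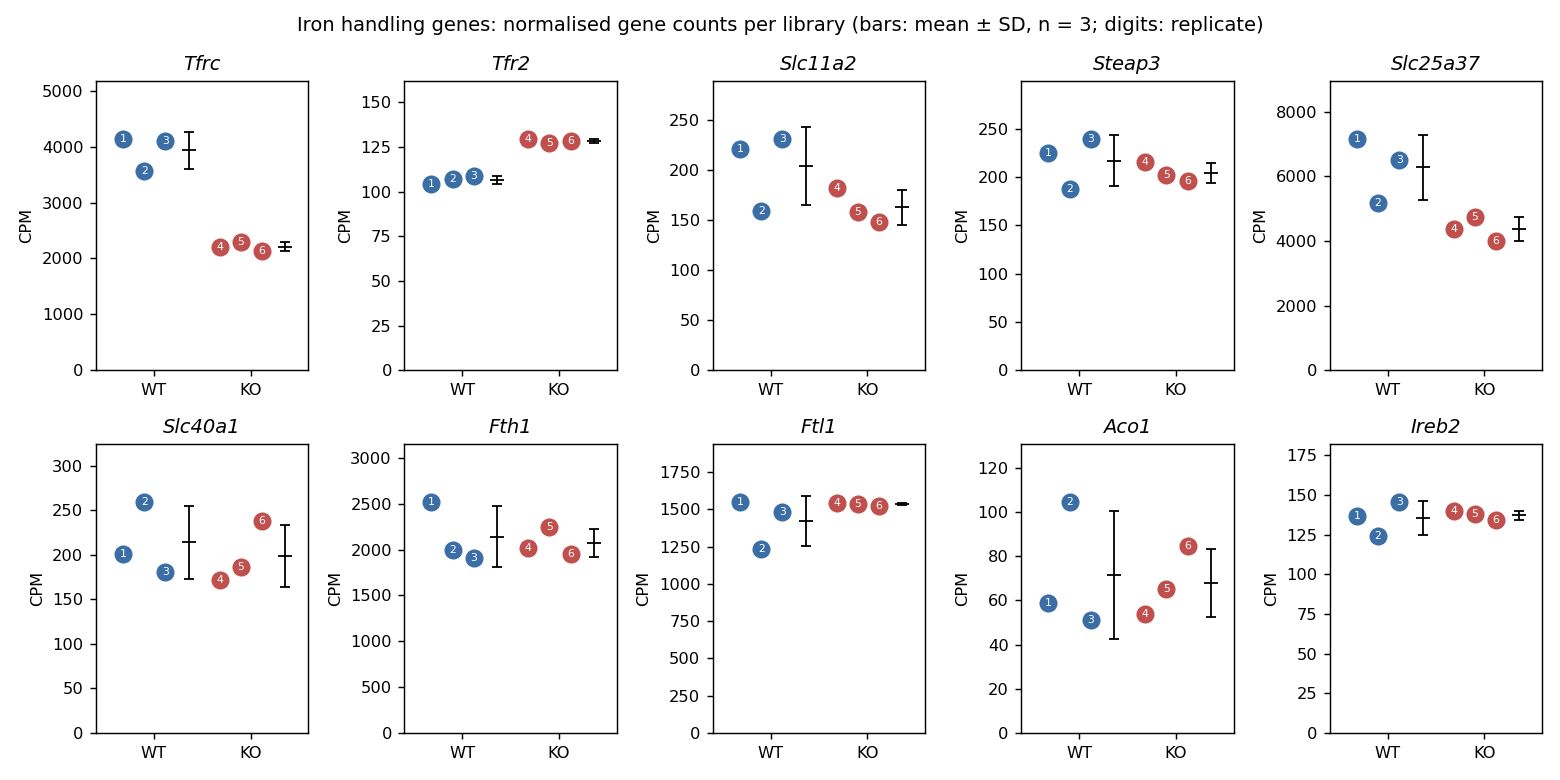
Normalised gene counts (CPM, y axis from 0) of the 10 genes in each of 6 libraries, with WT in blue and KO in red, the replicate number inside each point and the mean ± SD (n = 3) beside it. Tfrc and Slc25a37 are lower and Tfr2 is higher in all KO libraries, whereas the groups of the other 7 genes overlap.

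Tfr2, a second transferrin receptor that senses iron and associates with the erythropoietin receptor, did not pass by edgeR. It measured 104, 107 and 109 CPM in WT and 130, 127 and 128 CPM in KO. The groups did not overlap and each was tight, with means of 107 ± 2.25 and 128 ± 1.24 CPM (SD, n = 3 each). The log2 change was 0.27 (SE 0.06, adjusted p = 0.0781, edgeR). Non-overlap alone is common here, since 11.8% of tested genes were higher and 10.9% lower in every KO library. DESeq2, which called 4.34% of genes higher and 4.32% lower, gave Tfr2 an adjusted p of 9.8e-04. By edgeR it also passed with library totals in place of TMM (0.0355), without WT replicate 2 (0.0364), without WT replicate 2 and KO replicate 6 together (0.0491) and with hepatocyte marker level as covariate (0.0102). The log2 change lay between 0.27 and 0.35 in those fits, where 801, 1495, 1418 and 2651 genes passed in that order, beside 495 in the main fit. Tfr2 did not pass by limma-voom (adjusted p = 0.113), nor by edgeR without the filter (0.136) or with DESeq2 size factors (0.0756). Nor did it by edgeR without WT replicate 1 (0.292) or 3 (0.257), or KO replicate 4 (0.228), 5 (0.236) or 6 (0.206).

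Later steps of uptake depend on Steap3, the endosomal ferrireductase of erythroid cells, and Slc11a2, the iron transporter DMT1 that moves iron out of the endosome. Steap3 was 224, 187 and 239 CPM in WT and 216, 202 and 196 CPM in KO. The ranges overlapped, the log2 change was -0.09 (SE 0.11, adjusted p = 0.837, edgeR). This is the member with the miR-451a match. Slc11a2 was 221, 159 and 231 CPM in WT and 182, 158 and 148 CPM in KO. WT replicate 2 lay inside the KO range, and the log2 change was -0.33 (SE 0.16, adjusted p = 0.385, edgeR). That WT library has the highest hepatocyte marker sum. Without it Slc11a2 had a log2 change of -0.47 (adjusted p = 0.0371, edgeR), in a fit where 1495 of 15308 tested genes passed. A fit with hepatocyte marker level as covariate gave -0.25 (adjusted p = 0.0240, edgeR), where 2651 of 15105 genes passed. Slc11a2 did not pass in any other alternative. Its adjusted p was 0.751 without WT replicate 1 and 0.687 without WT replicate 3 by edgeR. By DESeq2 it was 0.323 and by limma-voom 0.405. Slc11a2 overlaps Gm5475 on the opposite strand, and whether counting used strand is not stated in the labels.

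Slc25a37, or mitoferrin 1, imports iron into mitochondria for heme synthesis. It was 7155, 5167 and 6503 CPM in WT and 4371, 4724 and 4008 CPM in KO. All KO values lay below all WT values, but the 3 WT libraries spread widely. Mean levels were 6275 ± 1013 CPM in WT and 4368 ± 358 in KO (SD, n = 3 each). By edgeR the log2 change was -0.52 (SE 0.19), and its adjusted p was 0.235. DESeq2 gave 0.00606. EdgeR gave 0.0179 without the 2 libraries of highest hepatocyte marker level, 0.0247 without WT replicate 2 and 0.0274 with the hepatocyte marker covariate. Those edgeR fits passed 1418, 1495 and 2651 genes, beside 495 in the main fit. Slc25a37 did not pass by limma-voom (0.143), nor by edgeR with library totals (0.176) or without the filter (0.443). By edgeR its adjusted p was 0.551 without WT replicate 1 and 0.509 without 3. Without KO replicates 4, 5 and 6 in turn it was 0.376, 0.241 and 0.336 (edgeR).

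The ferritin subunits, which form the iron storage shell, showed no change past the threshold. Fth1, the heavy subunit with ferroxidase activity, was 2523, 1994 and 1908 CPM in WT and 2013, 2244 and 1950 CPM in KO. By edgeR its log2 change was -0.05 (SE 0.16, adjusted p = 0.974). Ftl1, the light subunit, was 1553, 1232 and 1480 CPM in WT and 1542, 1540 and 1526 CPM in KO, a log2 change by edgeR of 0.11 (SE 0.13, adjusted p = 0.812). For both genes the WT libraries were the more spread, and the KO values of Ftl1 stayed within 1526 to 1542 CPM. The annotation lists 5 close ferritin copies (Fth-ps2, Fth-ps3, Ftl1-ps1, Ftl1-ps2 and Ftl2-ps), so reads of these families may have been split or lost in counting.

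Slc40a1 encodes ferroportin, the iron exporter of macrophages, hepatocytes and erythroblasts. It was 201, 260 and 181 CPM in WT and 172, 187 and 238 CPM in KO. Its log2 change by edgeR was -0.11 (SE 0.18, adjusted p = 0.905). Aco1, or iron regulatory protein 1, which doubles as a cytosolic aconitase, was 58.6, 105 and 51.0 CPM in WT and 54.0, 65.0 and 84.6 CPM in KO, a log2 change by edgeR of -0.08 (SE 0.30, adjusted p = 0.984). Both genes were highest in WT replicate 2 and KO replicate 6, the 2 libraries with the highest hepatocyte and macrophage marker sums. In the fit with that covariate their log2 changes were -0.17 and -0.14, with adjusted p of 0.0958 and 0.0848 (edgeR). Without those 2 libraries the change was -0.07 for Slc40a1 and 0.14 for Aco1.

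Ireb2, or iron regulatory protein 2, is degraded when iron is plentiful. It was 137, 124 and 146 CPM in WT and 140, 138 and 134 CPM in KO, so the KO range lay inside the WT range. The log2 change was 0.02 (SE 0.08, adjusted p = 0.990, edgeR), the smallest in size of the 10 members, in the gene with 3 miR-144-3p matches.

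Per kilobase of the annotated principal transcript, the order of mean WT levels was Slc25a37 (1503 CPM per kb), Ftl1 (1468), Fth1 (1433), Tfrc (805), Slc11a2 (67.4), Slc40a1 (63.5), Steap3 (42.1), Tfr2 (34.7), Ireb2 (23.5) and Aco1 (18.7). The ranges over WT libraries overlapped between neighbours for Slc25a37, Ftl1 and Fth1, for Slc11a2 and Slc40a1, and for Ireb2 and Aco1. In KO livers Slc25a37 was at 960 to 1132 CPM per kb, below all KO values of Fth1 (1305 to 1502), while Tfrc (435 to 470) stayed at rank 4. The order depends on the transcript chosen: by the length of all annotated exons Ftl1 had rank 1 and Tfrc rank 3 in WT.

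Intron counts, which stand for unspliced RNA, gave another reading of Tfrc. Exonic and intronic counts were scaled separately, so their CPM values are not on one scale. Intronic Tfrc was 2071, 2516 and 1761 CPM in WT and 1937, 2270 and 1890 CPM in KO. The KO values lay inside the WT range, with means of 2116 ± 380 and 2032 ± 207 CPM (SD, n = 3 each). The intronic log2 change was -0.06 (SE 0.18, adjusted p = 0.989, edgeR), and its sign turned without WT replicate 2 (0.06). Exonic Tfrc changed by -0.84 (SE 0.14) in the same table, where exon counts equal the gene counts. In intron counts 0.72% of 11803 genes passed (0.237% higher, 0.483% lower), and 0 of the 10 members did. Of the other members, Ftl1 (0.41), Fth1 (0.29) and Ireb2 (0.10) had introns higher in every KO library, as did 9.92% of genes with tested introns, with unadjusted p of 0.0240, 0.0468 and 0.421 by edgeR. At that unadjusted level, under 0.05, introns of 5.39% of genes were higher and of 5.45% lower. For introns 7.57% of genes were lower in every KO library, among them 0 of the 10 members. The groups were barely apart for Ireb2 introns, at 92.415 CPM in KO replicate 6 and 92.406 in WT replicate 1. Ftl1 overlaps Gm22133 on the same strand and Gm10252 on the opposite one, and their part in its intron counts was not tested.

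**Figure D3:**
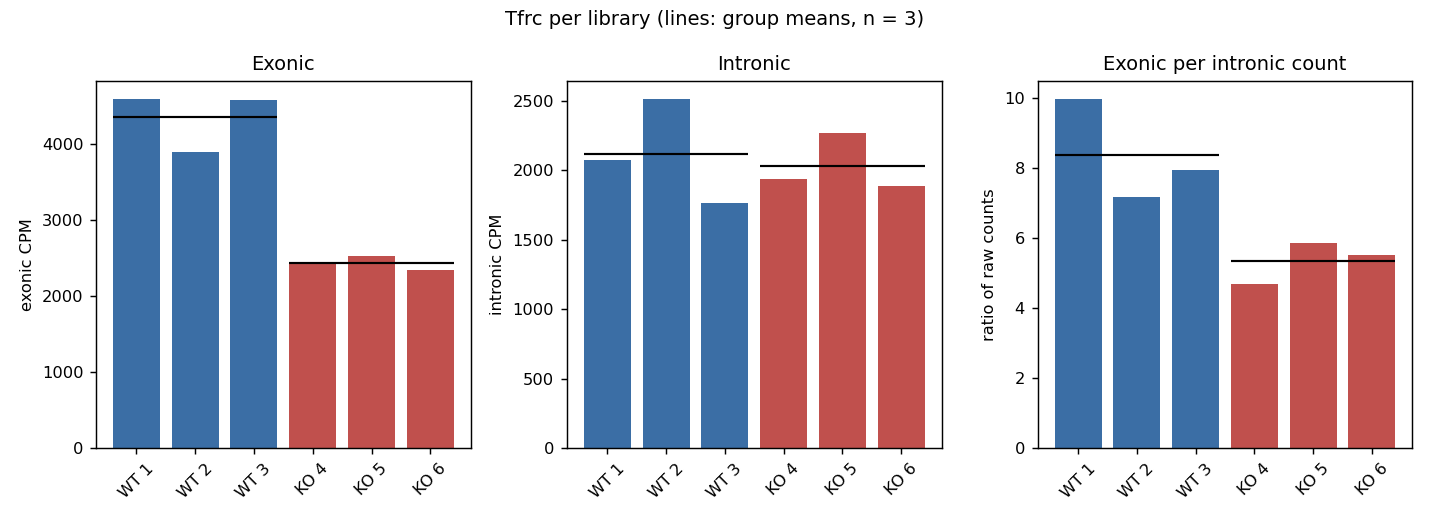
Tfrc in each library as exonic CPM, intronic CPM and exonic counts per intronic count (bars from 0, lines at group means, n = 3, WT blue and KO red). The exonic level and the ratio are lower in all 3 KO libraries, whereas intronic levels overlap between groups.

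Within single libraries, Tfrc had 9.999, 7.19 and 7.96 exonic counts per intronic count in WT and 4.70, 5.87 and 5.52 in KO. The groups did not overlap, and Tfrc was the 1 member for which this ratio did not; 0.793% of 11100 genes were lower in every KO library and 3.50% higher. After scaling, the log2 ratio of exonic to intronic CPM was lower by 0.79 in KO on average, written as a difference of -0.79 (exact permutation p = 0.10, two-sided, the smallest that 3 against 3 allows). In a single fit over both kinds of count, the exonic change of Tfrc minus its intronic change was -0.78 (SE 0.30, unadjusted p = 0.0352, adjusted p = 0.99997, edgeR). That difference did not pass the adjustment over all genes, and 0 of 11100 genes did by edgeR, with 1.67% at an unadjusted p under 0.05 in the direction of a higher and 1.5% in that of a lower exonic change. Without WT replicate 3 alone 150 genes passed, and without any other single library 0 did. DESeq2, which called 0.643% as higher and 0.151% as lower of the 5290 genes to which it gave an adjusted p, gave Tfrc an adjusted p of 0.106. The value ranged from -0.97 to -0.59 over the alternatives tried. GENCODE lists 7 transcripts of Tfrc, 4 of them with a retained intron, and intron counts do not separate these from unspliced RNA.

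For the other members the same difference was -0.48 (SE 0.41) in Slc25a37, -0.34 (0.22) in Fth1, -0.29 (0.32) in Slc11a2, -0.28 (0.22) in Ftl1 and -0.25 (0.22) in Steap3. It was -0.16 (0.43) in Aco1, -0.08 (0.14) in Ireb2, 0.02 (0.21) in Slc40a1 and 0.19 (0.16) in Tfr2. None of these 9 had an unadjusted p under 0.05 by edgeR, and by DESeq2 Fth1 alone did (0.0439, adjusted p = 0.9998). The span of the Slc25a37 gene overlaps Gm20236 on the same strand and Gm27222, Gm27223 and Gm31748 on the opposite one. Its intron counts may hold reads of those transcripts, but overlap with introns as such was not tested.

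**Figure D4:**
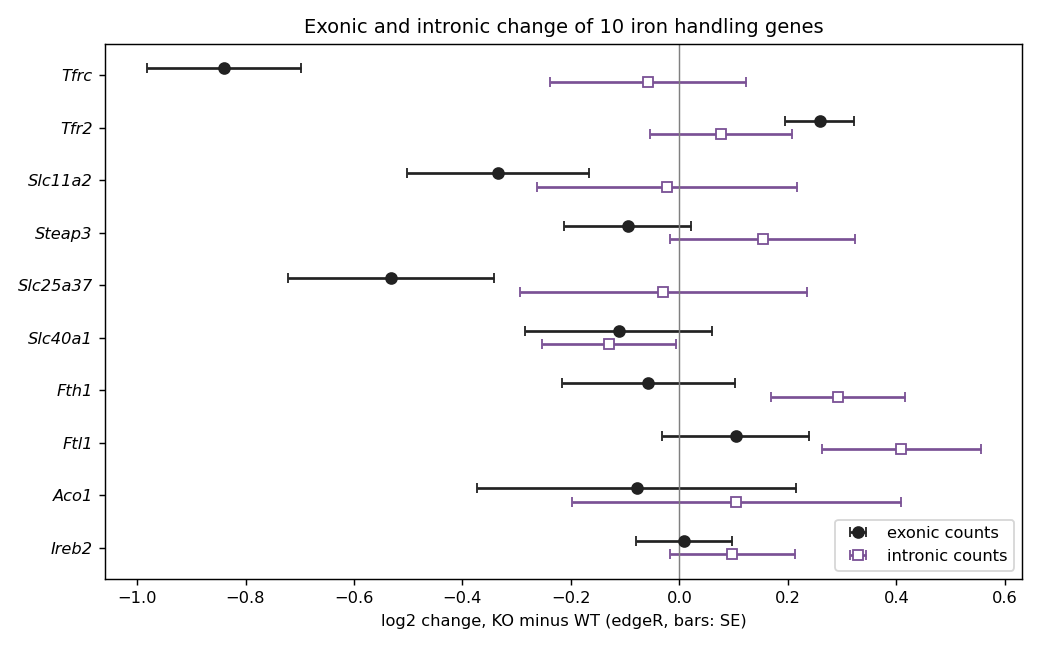
Log2 change from WT to KO of exonic counts (filled circles) and intronic counts (open squares) for the 10 genes, with standard errors from edgeR. Tfrc shows the widest separation, at -0.84 for exons and -0.06 for introns.

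Of 16 measured erythroid markers, led by Slc4a1, 2 fell by edgeR (Trim10 and Epb4.2), 0 rose and 14 did not pass. In that fit 1.45% of all tested genes fell and 1.83% rose. All 16 had a log2 change below 0, as did 8331 of all 15105 tested genes, and their median was -0.52 beside -0.03 over all tested genes. In 10 of the 16 every KO library was below every WT library, as in 10.9% of tested genes. By DESeq2 10 of the markers passed as lower, as did 4.32% of all genes. Without the 2 libraries of highest hepatocyte marker level 10 markers passed as lower, in a fit where 838 of 15066 genes did. However, 0 markers passed without any 1 library other than WT replicate 2. Their summed level ran from 28240 to 39882 CPM in WT and from 22977 to 26826 CPM in KO. In bulk tissue, fewer cells of a type and less RNA per cell cannot be told apart. When library sizes were set by the geometric mean of these markers, Tfrc still fell, by 0.38 on the log2 scale (adjusted p = 0.0110, edgeR), while the median of all tested genes stood at 0.40. On that scale 30.6% of tested genes passed as higher and 1% as lower. Of the 16 markers that set the scale, 4 passed as higher and 2 as lower by edgeR. Slc25a37 was at -0.07 (adjusted p = 0.274, edgeR). Tfr2 (0.70), Ftl1 (0.57) and Ireb2 (0.46) passed as higher and lay above the median gene, while Fth1 (0.40) and Steap3 (0.36) passed as higher but lay at or below it.

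**Figure D5:**
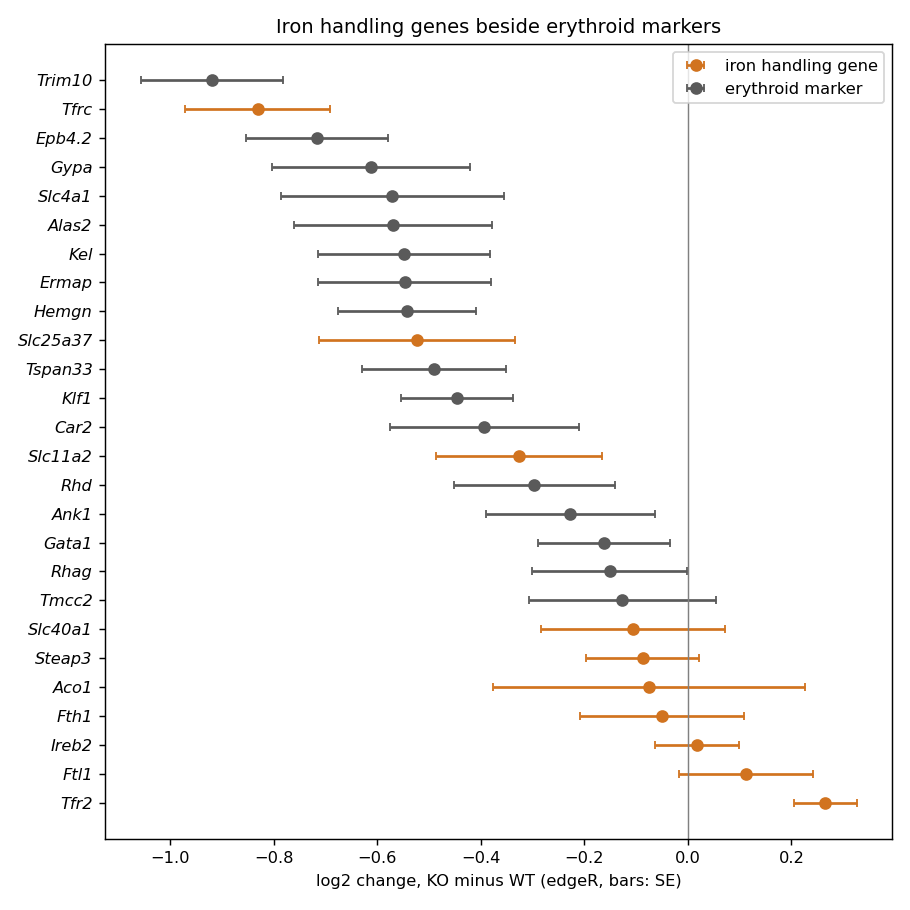
Log2 change from WT to KO with standard errors (edgeR, TMM scaling) for the 10 iron handling genes (orange) and 16 erythroid markers (grey), ordered by change. Tfrc at -0.83 lies below all markers except Trim10 at -0.92, Slc25a37 at -0.52 lies among them, and Tfr2 at 0.27 lies above all.

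Of 36 other tested genes of iron handling, 1 fell and 0 rose, with a median log2 change of -0.0043. The gene that fell was Fam132b, now named Erfe, which encodes erythroferrone, the hormone by which erythroblasts lower hepcidin. It was 14.9, 13.7 and 14.7 CPM in WT and 7.26, 6.35 and 6.01 CPM in KO. All KO values were close to the same low level, and the log2 change was -1.14 (SE 0.13, adjusted p = 0.0147, edgeR). Its call was lost on leaving out WT replicate 1 (adjusted p = 0.0932, edgeR) or 3 (0.0799), and on leaving out KO replicate 4 (0.0620), 5 (0.0778) or 6 (0.0509). The 6 log2 changes lay between -1.23 and -1.09. Scaled to the erythroid markers it was at -0.70 (adjusted p = 0.0293, edgeR).

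Ncoa4, the receptor that delivers ferritin for breakdown, averaged 1003 ± 149 CPM in WT and 722 ± 60.3 in KO (SD, n = 3 each). By edgeR this was a log2 change of -0.47 (adjusted p = 0.159). Slc48a1, a heme transporter, was at -0.38 (adjusted p = 0.167, edgeR), with no overlap between groups for either gene. Abcb10, which stabilises mitoferrin 1 in the mitochondrial membrane, was at 0.21 (adjusted p = 0.634, edgeR), and Picalm, an endocytosis adaptor needed for transferrin uptake, was at -0.00064 (adjusted p = 0.9997, edgeR).

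Among 5 further mRNAs known to carry iron-responsive elements, Cdc14a rose and 0 fell. Cdc14a, a phosphatase of the cell cycle, went from 10.8 ± 1.11 to 18.0 ± 2.06 CPM (SD, n = 3 each; log2 change 0.74, SE 0.14, adjusted p = 0.0470, edgeR). The call was lost on leaving out WT replicate 1 (adjusted p = 0.135, edgeR) or 3 (0.184), or KO replicate 4 (0.108), 5 (0.129) or 6 (0.0840). Alas2, the first enzyme of erythroid heme synthesis and also in the erythroid marker list, was at -0.57 (adjusted p = 0.202, edgeR). Cdc42bpa, a kinase of the cytoskeleton, was at -0.06 (adjusted p = 0.966, edgeR).

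Genes whose proteins are known to bind or destabilise mRNAs such as that of Tfrc were measured too, and 0 of 5 passed in either direction by edgeR, while 1 lower gene passed by DESeq2. At an unadjusted p under 0.05 (edgeR; 7.77% of all genes higher, 8.78% lower) there was 1 of these genes on each side. Rc3h1, which encodes Roquin-1, was at -0.36 (adjusted p = 0.129, edgeR) and its relative Rc3h2 at -0.09 (0.843). Zfp36l2, a binder of AU-rich elements, was at 0.27 (0.216).

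The genes with the most similar profile to Tfrc were sought among 10541 others with a mean of at least 5 CPM, by the root mean square difference of log2 CPM over the 6 libraries after centring each gene on its mean. The closest 5 were Zrsr1 (0.0350), a splicing factor, Klf10 (0.0519), a zinc finger factor, Lbr (0.0584), the lamin B receptor, Cdkn3 (0.0645), a phosphatase of cyclin-dependent kinases, and Anln (0.0669), the cytokinesis protein anillin. Zrsr1 was 48.6, 39.6 and 47.6 CPM in WT and 25.7, 26.0 and 25.5 CPM in KO, with WT replicate 2 the lowest of its group as for Tfrc. All values come from the same 6 libraries, so these likenesses are a description only.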

How the data were processed

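RNA sequencing counts of 3 WT and 3 KO fetal liver libraries were used, with groups and replicate numbers from the sample titles. The authors deposited 1 table of raw counts per gene and 1 table with exonic and intronic counts of 15543 genes, whose exonic counts equal the gene counts throughout. The submitters' processing notes name STAR, HTSeq and the builds NCBIM37 and mm10, and give no tool version, strand setting or intron definition. The gene table held 0 globin or mitochondrial symbols. No 2 libraries of a group agreed within sampling noise (chi-square per degree of freedom 16.7 to 157), so each was 1 replicate; reads carry no molecular identifiers.

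Counts were tested with edgeR 4.0.16 in R 4.3.3 (TMM, filterByExpr with a minimum count of 10 and minimum total of 15, quasi-likelihood F test) and Benjamini-Hochberg adjustment over all tested genes, threshold 0.05. Exonic against intronic change was the interaction of region with genotype over 12 columns with a term per library. Alternatives used DESeq2 1.42.0, limma-voom 3.58.1, other scalings, no filter and left-out libraries. Named genes were all 10 members, for each further list the genes past the threshold, the 3 most abundant and the 2 of smallest p, and the 5 closest profiles to Tfrc. Members and lists were chosen with earlier results of these data known. Gene symbols of UTR searches and lengths follow GENCODE M21, and all coordinates are GRCm38, which is not the build named for the gene table. The values of 1 gene that the naming rule selects are not reported here.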

Additional observations from a re-analysis of the deposited data

How the results depend on the processing

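No paired analysis was possible because WT and KO libraries share no replicate number. Tfrc kept its direction in all 14 alternatives to the gene count test, from -0.90 to -0.38. Its call was lost without the filter on low counts (-0.79) and in 5 of 6 leave-one-out fits, which ran from -0.90 to -0.79. The number of genes past the threshold (495; 55.8% of them higher) was 1307 by DESeq2 and 801 (68.8% higher) by library totals without TMM. It was 4776 (96.8% higher) scaled to erythroid markers, 1418 (40.9% higher) without the 2 libraries of highest hepatocyte marker level, 2651 with that level as a covariate, and 12 to 1495 in the leave-one-out fits.

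The Tfrc intron change reversed to 0.078 without both libraries and ran from -0.21 to 0.060 leaving out 1 library. The exon minus intron change of Tfrc ran from -0.97 to -0.59 and the log2 ratio from -0.98 to -0.59 leaving out 1 library, with no change of sign. Some values of other members turned sign, none of them past the threshold with TMM scaling of all libraries. By library totals Steap3 was at 0.0057 and Fth1 at 0.045. Scaled to erythroid markers Slc11a2 was at 0.14, Steap3 at 0.36, Slc40a1 at 0.31, Fth1 at 0.40 and Aco1 at 0.31, where the median gene was at 0.40. With those 2 libraries left out Aco1 was at 0.14 and Ireb2 at -0.0031, introns of Slc11a2 at 0.21, Slc25a37 at 0.26 and Aco1 at -0.31, and the exon minus intron change of Slc40a1 at -0.016 and Aco1 at 0.38. That of Ireb2 was 0.066 with both kinds of column scaled together. Leaving out 1 library, gene changes ran from -0.29 to 0.31 for Aco1, -0.13 to 0.087 for Fth1, -0.042 to 0.073 for Ireb2 and -0.27 to 0.058 for Slc40a1. Intron changes ran from -0.11 to 0.43 for Aco1, -0.25 to 0.16 for Slc11a2, -0.29 to 0.15 for Slc25a37 and -0.023 to 0.31 for Steap3. Exon minus intron changes ran from -0.64 to 0.31 for Aco1, -0.11 to 0.015 for Ireb2, -0.57 to 0.069 for Slc11a2, -0.18 to 0.16 for Slc40a1 and -0.37 to 0.016 for Steap3. The cause was not tested for any of these.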
